A study of Arabidopsis thaliana with 36 samples.

Results

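The response of roots to 1 h in a solution of polyethylene glycol (PEG) and salicylhydroxamic acid (SHAM) was set against the response of shoots of the same seedlings, gene by gene. The quantity described is the difference between treated and water roots minus the difference between treated and water shoots, on the scale of log2(normalized count + 1), and it is called the root minus shoot difference below. It was taken over 12 of the 36 libraries of the series, chosen by their labels and by no measured value. All seedlings were wild-type Arabidopsis thaliana of the ecotype Columbia-0, 7 d old, grown at 21 °C on medium with sucrose. The groups were PS1 roots (30% PEG with 1 mM SHAM for 1 h), PS0 roots (water, labelled as 1 h), PS1 shoots (the same PEG and SHAM for 1 h) and PS0 shoots (water, labelled as 1 h), with 3 libraries in each. A library was made from a pool of 30 to 50 seedlings whose roots and shoots were parted after the treatment, and transcripts were counted by MARS-seq, which sequences a tag near the 3′ end of each transcript. PEG is a polymer that lowers the water potential of a solution, here to -2.0 MPa, and SHAM is an inhibitor of the alternative oxidase and of lipoxygenases. The treatment protocol also gives the SHAM dose as 0.1 mM, and PEG or SHAM alone was not analysed here, so their effects cannot be told apart. Both PS0 groups are labelled as 1 h in water, whereas the series' design text lists a 0 h point, so PS0 may be a matched 1 h control or the start of the treatment. If it is the start, 1 h in liquid and the treatment itself cannot be told apart in any PS1 minus PS0 value.

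Abscisic acid (ABA) is the hormone through which plants respond to water deficit. It binds receptors of the PYR/PYL family, and the occupied receptors inhibit type 2C protein phosphatases (PP2Cs) such as ABI1 and ABI2, which otherwise hold the SnRK2 kinases inactive. Transcripts of several PP2Cs are themselves induced by ABA and those of several receptors are lowered by it, and both act as feedback on the pathway.

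The 12 libraries held between 429814 and 7181460 reads, as recovered from the steps of the deposited values, with a median of 1493430. Of 28 photosynthesis genes, which mark green tissue, the summed normalized counts were 959 to 7327.6 in PS1 roots and 1342.5 to 2412.2 in PS0 roots, against 242986 to 255297 in PS1 shoots and 261895 to 312004 in PS0 shoots. The 17 root markers summed to 3871.8 to 4227 in PS1 roots, 5441.4 to 7650.5 in PS0 roots, 432.4 to 749.2 in PS1 shoots and 394.7 to 517.4 in PS0 shoots. The sums of both lists lay far apart between roots and shoots, so tissues and labels fitted. Of the 17 root markers, 9 were above 0 in all 3 PS1 shoot libraries and 7 in all 3 PS0 shoot libraries. The endodermal CASP4 and the root hair gene RHS12 were at 0 in all 6 shoot libraries, but CASP4 was also low in PS1 roots (3.4, 0 and 0.3). PS1 root replicate 2 stood apart, with the fewest reads (429814) and the highest photosynthesis sum among roots (7327.6). The summed root markers were lower in PS1 than in PS0 roots, and the part of either shift in the results below was not tested. In bulk tissue, fewer cells of a type and less RNA per cell cannot be told apart.

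Genes whose response at 1 h differed between the tissues included ABA signalling genes, transcription factors and cell wall genes. Of 9191 genes tested, limma called 32 (0.348%) at a Benjamini-Hochberg adjusted p under 0.05, of which 20 (0.218%) had a higher and 12 (0.131%) a lower root minus shoot difference. At an unadjusted p under 0.05 there were 705 (7.67%), and the median difference of all genes tested was -0.05. In 16 of the 20 higher genes the root change was positive and the shoot change negative, in 3 both were positive and in 1, PYL6, both were negative. In 10 of the 12 lower genes the root change was negative and the shoot change positive, and in the other 2, ABI1 and AT5G58620, both were positive. PS1 and PS0 root libraries did not overlap for 27 of the 32 genes, against 11.9% of all genes tested, and shoot libraries did not overlap for 26, against 13.3%. These shares and the counts of signs describe the genes called, since the call uses the same libraries. A call on the difference between 2 changes favours changes of opposite sign. Of the 20 higher genes, 15 were called up in roots, 6 down in shoots and 2 in both ways. Of the 12 lower genes, 3 were called down in roots, 6 up in shoots and 0 in both ways.

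**Figure D1:**
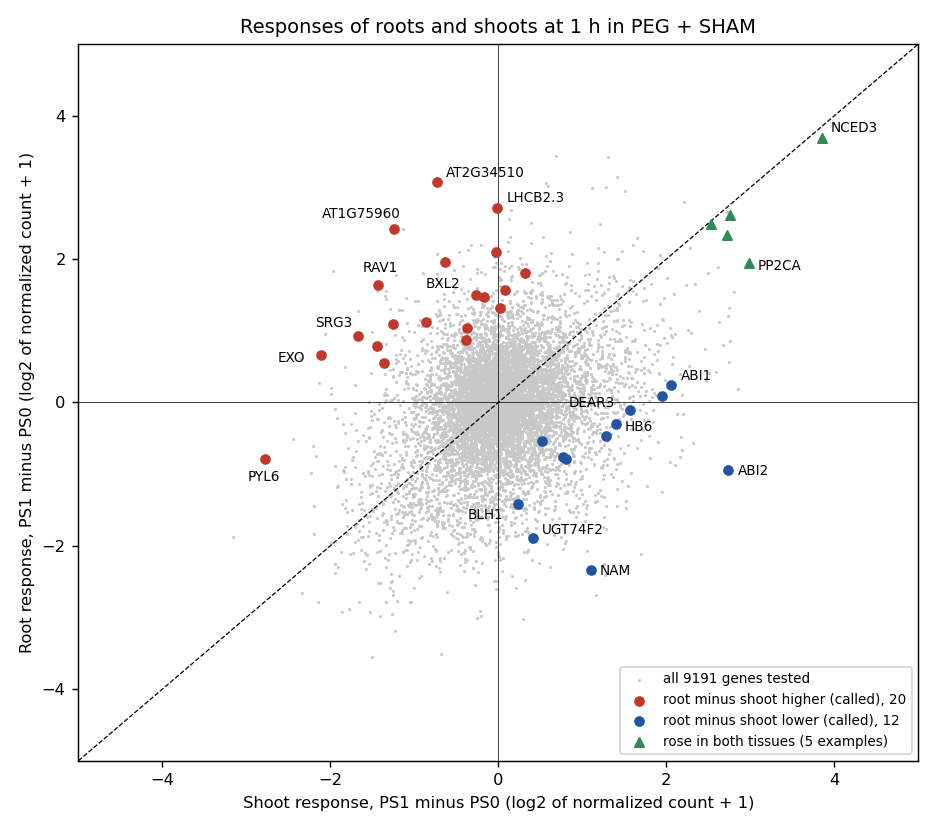
Change at 1 h in shoots (x axis) and in roots (y axis), each PS1 minus PS0 on the log2(normalized count + 1) scale, for the 9191 genes tested (grey; 1 gene lies outside the axes). Red points are the 20 genes with a higher and blue points the 12 with a lower root minus shoot difference, green triangles are 5 genes that rose in both tissues, and the dashed line marks equal change. Most red points lie above 0 in roots and below 0 in shoots, and most blue points lie right of 0 in shoots and below 0 in roots.

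The size of the call set depends on the tool, the water set, the libraries and the spread used. It held 94 genes with DESeq2, 163 with depth as a covariate, 1006 with S0 and PH0 (the other water libraries of the series) in place of PS0 and 491 with all 3 water sets. It held 19 genes without PS0 root replicate 1, 69 without PS1 root replicate 2, 18 without PS1 shoot replicate 2 and 20 without PS1 shoot replicate 3, and 3 genes (3 higher, 0 lower) when the spread came from the 12 libraries alone. Roots and shoots of the same set and number were taken as parted from 1 pool of seedlings. With that pool as a block 15 of the 32 genes were called (12 higher, 3 lower). Of the 23 named genes 13 kept the call under this block, and its adjusted p stands beside each of the other 10. The split into higher and lower genes was 16 and 5 after TMM rescaling and 21 and 21 after quantile normalization. All 32 genes kept the sign of their difference under every alternative run, and 16 kept their call whichever of the 12 libraries was left out. The kept sign describes the genes called, since they were chosen by this difference in the same libraries. The filters, the replicate blocks and the 12 libraries alone change the error of a difference and not its value.

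Genes of ABA perception and signalling stood on both sides. The PP2Cs ABI1 and ABI2 and the homeodomain factor HB6 rose in shoots and were not called in roots, so their root minus shoot difference was lower, whereas the receptor gene PYL6 fell in shoots and had a higher difference. ABI1, a phosphatase that restrains ABA signalling, had 284.6, 563 and 330.5 normalized counts in PS1 roots, against 330, 294.8 and 329.1 in PS0 roots. In shoots ABI1 had 870.9, 1044.3 and 1451.1 in PS1 and 282.1, 232.7 and 275 in PS0. Root libraries of ABI1 overlapped, and every PS1 shoot library was above every other library. The ABI1 change was 0.24 ± 0.21 in roots and 2.06 ± 0.21 in shoots (log2 ± SE, n = 3 libraries a group here and below), a difference of -1.82 ± 0.30 (limma adjusted p = 0.0011). Each SE uses the spread of all 36 libraries. ABI2, the closest relative of ABI1, was low in all libraries, with 11.4, 8.5 and 12.8 in PS1 roots and 17.2, 16.8 and 34.2 in PS0 roots. ABI2 had 24.9, 29.1 and 47.7 in PS1 shoots and 0, 18.4 and 5.6 in PS0 shoots. Its PS1 roots were below its PS0 roots and its PS1 shoots above its PS0 shoots, without overlap. The ABI2 difference was -3.67 ± 0.79 (adjusted p = 0.024), made of -0.94 ± 0.56 in roots (adjusted p = 0.48) and 2.74 ± 0.56 in shoots (adjusted p = 0.006). The ABI2 call was lost without PS0 root replicate 3 (adjusted p = 0.079), PS1 shoot replicate 2 (0.057) or PS1 shoot replicate 3 (0.11), and without the 3 libraries under 600 kiloreads the difference was -2.03 (adjusted p = 0.058). With the seedling pool as a block the ABI2 adjusted p was 0.054.

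HB6, a homeodomain-leucine zipper factor that binds ABI1 and is induced by ABA, had 309.5, 281.5 and 330.4 normalized counts in PS1 roots, against 343.1, 366.5 and 425.4 in PS0 roots. In shoots HB6 had 968.6, 913.6 and 935.4 in PS1, against 370.2, 393.5 and 308.7 in PS0. The shoots of PS1 stood far above the other 3 groups, and the roots of PS1 slightly below those of PS0. The HB6 change was -0.30 ± 0.16 in roots (adjusted p = 0.40) and 1.40 ± 0.16 in shoots (adjusted p = 9.3e-07), a difference of -1.70 ± 0.22 (adjusted p = 0.00011). That standard error, the smallest of the 32 genes, uses the spread of all 36 libraries. In the 12 libraries alone it was 0.301, above that of EXO (0.293). The size of the HB6 difference depends on the water set, since it was -0.69 (adjusted p = 0.018) with the S0 and PH0 water libraries in place of PS0. PYL6, an ABA receptor, had 445.4, 473.4 and 273.7 in PS1 roots, against 616.4, 582.5 and 844.6 in PS0 roots. PYL6 had 90.6, 53.1 and 59.8 in PS1 shoots, against 564.1, 480.7 and 353.5 in PS0 shoots. It was below water in every treated library of both tissues, by -0.80 ± 0.32 in roots (adjusted p = 0.23) and by -2.77 ± 0.32 in shoots (adjusted p = 1.4e-06). The PYL6 difference of 1.98 ± 0.45 was close to the threshold (adjusted p = 0.046). Its call remained only without PS0 root replicate 3, PS0 shoot replicate 3, PS1 root replicate 3 or PS1 shoot replicate 1, and without each of the other 8 libraries the adjusted p was between 0.066 and 0.17. With the seedling pool as a block it was 0.10.

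The lists of these families are small, and they are described by counts and medians without a test of the list, each median with its range, or its extremes, when 1 of the 12 libraries is left out. Of 7 PP2Cs tested (of 9 listed), 2 were called, both with a lower difference, against 0.131% of all genes tested. The median of the 7 was -1.18 (-1.64 to -0.91), against -0.05 for all genes. Under the seedling pool block 1 PP2C was called. The PP2C median was 0.33 in roots and 1.91 in shoots. PP2CA, another phosphatase of the clade, rose in both tissues, with 204.6, 469.2 and 209.9 in PS1 roots, 76.9, 60.2 and 74.5 in PS0 roots, 255.7, 303 and 417.6 in PS1 shoots and 45.8, 44.4 and 30.2 in PS0 shoots. Its change was 1.94 in roots and 2.98 in shoots, and the difference of -1.04 (95% interval -1.90 to -0.19) did not pass over all genes (adjusted p = 0.49). Of 8 receptor genes tested (of 9), 1 was called (PYL6, higher), against 0.218% of all genes tested, and 0 under the seedling pool block. In limma 2 had an unadjusted p under 0.05, against 7.67% of all genes tested. Of the receptor genes edgeR and DESeq2 called 1 each, against 42 and 94 of all 9191 genes. The receptor median was 0.53, and 0.11 without PS1 shoot replicate 3 to 0.87 without PS1 shoot replicate 1. PYL5 had a difference of 1.26 ± 0.57 (adjusted p = 0.58) and PYL4 one of 0.92 ± 0.52 (adjusted p = 0.75). Of 27 ABA and dehydration genes tested (of 32), 1 was called (HB6, lower), against 0.131% of all genes tested. The list's median was -0.39, and -0.81 without PS1 root replicate 2 and -0.11 without PS1 shoot replicate 3. In this list 4 of the 27 genes rose in roots, against 1.34% of all genes tested, and 6 in shoots, against 0.805%. AFP1, a protein that binds the factor ABI5, and ERD10, a dehydrin, rose in shoots by 1.85 and 1.73 (adjusted p = 0.0083 and 0.0015), with root changes of 0.13 and 0.48 and differences of -1.72 ± 0.55 and -1.25 ± 0.44 that were not called (adjusted p = 0.26 and 0.34).

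**Figure D2:**
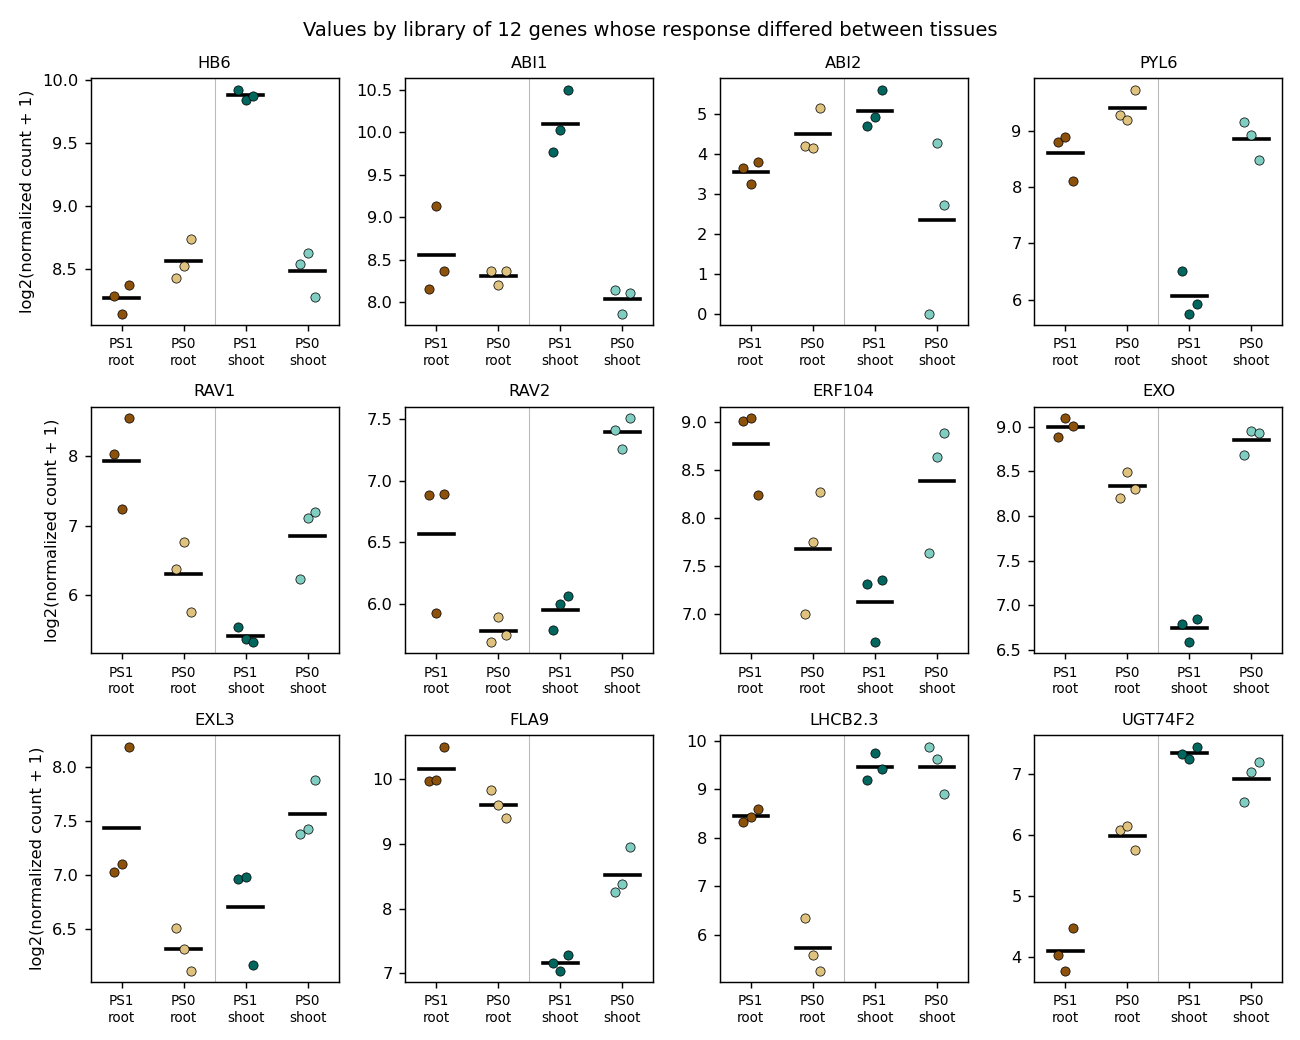
log2(normalized count + 1) of 12 genes in the 3 libraries of PS1 roots, PS0 roots, PS1 shoots and PS0 shoots, each point a library and each bar a group mean. The y axes differ between panels and do not start at 0. HB6 and ABI1 are highest in PS1 shoots, PYL6 and EXO lowest there, and the LHCB2.3 libraries overlap between the shoot groups and stand apart between the root groups.

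Among transcription factors, RAV1 and RAV2 had positive root changes and negative shoot changes, but the root change of RAV2 was not called. RAV1, a factor with AP2 and B3 domains known as a repressor of growth, rose in roots and fell in shoots. It had 260.4, 149.3 and 373 normalized counts in PS1 roots, against 82, 108 and 52.8 in PS0 roots. In shoots RAV1 had 45.3, 40.1 and 39 in PS1, against 74, 136.3 and 146.2 in PS0. Neither pair of groups overlapped. The change was 1.64 ± 0.33 in roots (adjusted p = 0.0051) and -1.44 ± 0.33 in shoots (adjusted p = 0.02), a difference of 3.08 ± 0.47 (adjusted p = 0.00058). RAV2, also called TEM2, is a relative of RAV1 known to delay flowering. RAV2 had 117.1, 59.7 and 118 in PS1 roots and 50.6, 58.4 and 52.8 in PS0 roots, with PS1 replicate 2 just above water. In shoots RAV2 had 54.2, 62.8 and 65.9 in PS1 and 169.2, 151.6 and 180.9 in PS0. Its difference of 2.23 ± 0.42 (adjusted p = 0.0047) was made of 0.79 ± 0.29 in roots (adjusted p = 0.18) and -1.44 ± 0.29 in shoots (adjusted p = 0.006). RAV1 and RAV2 kept their calls without any 1 of the 12 libraries.

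ERF104, an ethylene response factor and a substrate of the kinase MPK6, was called in neither tissue alone. It had 515.4, 524.6 and 302 normalized counts in PS1 roots, against 127.5, 214.2 and 307.4 in PS0 roots, which overlapped. In shoots ERF104 had 158, 103.6 and 162.1 in PS1, against 197.5, 396.5 and 470 in PS0. Its difference was 2.35 ± 0.50 (adjusted p = 0.021), with a root change of 1.09 ± 0.35 and a shoot change of -1.26 ± 0.35. The ERF104 call was lost without PS0 root replicate 1 (adjusted p = 0.10), PS0 shoot replicate 2 (0.073) or 3 (0.068), PS1 root replicate 1 (0.060) or PS1 shoot replicate 2 (0.11).

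The regulators with a lower difference were called in 1 tissue each. DEAR3, an AP2 domain factor with a repression motif, rose in shoots, with 59.5, 68 and 74 normalized counts in PS1 shoots and 24.7, 23 and 18.5 in PS0 shoots. Its roots overlapped, with 51.8, 59.7 and 60.1 in PS1 and 61.7, 58.4 and 65.2 in PS0. The DEAR3 difference was -1.68 ± 0.39 (adjusted p = 0.046), and the call remained only without PS1 root replicate 2, with adjusted p between 0.062 and 0.15 without each of the other 11 libraries and 0.16 with the seedling pool as a block. AT5G58620, annotated as a CCCH zinc finger protein, had 43.5, 49.9 and 79.3 in PS1 shoots and 7.1, 18.4 and 19 in PS0 shoots, and between 36.4 and 42.6 in all 6 root libraries. Its difference was -1.86 ± 0.43 (adjusted p = 0.046), and it remained called without PS0 shoot replicate 2 or 3, PS1 root replicate 2 or PS1 shoot replicate 1, with adjusted p between 0.064 and 0.20 without each of the other 8 and 0.15 with the seedling pool as a block.

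BLH1, a BEL1-like homeodomain factor, fell in roots, with 30.3, 17.1 and 22.8 normalized counts in PS1 roots and 55.7, 68.2 and 65.2 in PS0 roots. Shoots of BLH1 overlapped, with 73.7, 68 and 92.8 in PS1 and 45.8, 78.1 and 79.5 in PS0. Its difference of -1.66 ± 0.38 (adjusted p = 0.045) remained called without PS0 shoot replicate 2 or 3 or PS1 root replicate 1, with adjusted p between 0.064 and 0.15 without each of the other 9 libraries and 0.14 with the seedling pool as a block. NAM, a factor of the NAC family, was near the limit of detection in roots, with 1.3, 0 and 5 in PS1 (2, 0 and 34 reads) and 9.1, 8 and 18.6 in PS0 (9, 9 and 6 reads). In shoots NAM had 36.4, 22.7 and 37 in PS1 and 14.1, 18.4 and 10.6 in PS0. NAM fell in roots by 2.34 (adjusted p = 0.0093), its shoot change was not called (adjusted p = 0.58), and the difference was -3.44 ± 0.72 (adjusted p = 0.019), or -2.19 with 5 in place of 1 added before the logarithm. The NAM call was lost without PS0 root replicate 3 (adjusted p = 0.070), PS1 shoot replicate 1 (0.054) or PS1 shoot replicate 3 (0.073), and under the seedling pool block (0.054).

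Genes of cell wall and cell surface proteins were among those with a higher difference. EXO (EXORDIUM), an apoplastic protein of cell expansion induced by brassinosteroids, and FLA9, a fasciclin-like arabinogalactan protein, fell in shoots. BXL2, a beta-xylosidase, and EXL3, an EXORDIUM-like protein, rose in roots. EXO had 473, 545.9 and 511.8 normalized counts in PS1 roots, against 293.5, 359.4 and 313.6 in PS0 roots. In shoots EXO had 110.1, 95.2 and 114.3 in PS1, against 409, 493 and 486.8 in PS0. Its PS1 roots were all above its PS0 roots, and its PS1 shoots all below its PS0 shoots. The EXO difference was 2.77 ± 0.44 (adjusted p = 0.00088), with -2.11 ± 0.31 in shoots (adjusted p = 0.0001) and 0.66 ± 0.31 in roots (adjusted p = 0.32). FLA9 had 997.2, 1015.1 and 1449.7 in PS1 roots and 905.9, 773.8 and 670.7 in PS0 roots, and 141.2, 130.8 and 155.3 in PS1 shoots and 303.2, 330.7 and 494.6 in PS0 shoots. Its difference was 1.91 ± 0.31 (adjusted p = 0.001), with -1.36 ± 0.22 in shoots (adjusted p = 0.00035) and 0.55 ± 0.22 in roots (adjusted p = 0.23).

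BXL2 had 374.1, 268.7 and 349.8 normalized counts in PS1 roots, against 140.7, 106.2 and 102.5 in PS0 roots. In shoots BXL2 had 178.4, 192.3 and 141.9 in PS1, against 211.6, 200.6 and 198.9 in PS0. Roots were well apart and shoots only just. The BXL2 change was 1.50 ± 0.21 in roots (adjusted p = 4.5e-05) and -0.26 ± 0.21 in shoots (adjusted p = 0.91), a difference of 1.76 ± 0.29 (adjusted p = 0.0012) that came to 2.88 with the S0 and PH0 water libraries. EXL3 had 129.2, 136.5 and 291.1 in PS1 roots and 90.1, 78.8 and 68.3 in PS0 roots, and 123.4, 125 and 70.6 in PS1 shoots and 165.7, 171.5 and 234.2 in PS0 shoots. EXL3 rose in roots by 1.13 ± 0.26 (adjusted p = 0.014), its shoot change was -0.86 ± 0.26 (adjusted p = 0.14), and the difference was 1.99 ± 0.36 (adjusted p = 0.004, but 0.12 with the seedling pool as a block). AT2G34510, annotated with a DUF642 domain, a family of cell wall proteins, had the largest difference of the 32 genes. It had 22.2, 8.5 and 23.2 in PS1 roots, against 1, 3.5 and 0 in PS0 roots, where only 5 reads were counted in all. In shoots AT2G34510 had 87, 69.3 and 77.3 in PS1, against 165.7, 104.1 and 124.9 in PS0. The root change was 3.07 ± 0.44 (adjusted p = 7.1e-05), the shoot change -0.73 ± 0.44 (adjusted p = 0.79) and the difference 3.80 ± 0.62 (adjusted p = 0.001), or 2.48 with 5 added before the logarithm. EXO, FLA9, BXL2, EXL3 and AT2G34510 all kept their calls without any 1 of the 12 libraries, and all but EXL3 under the seedling pool block. Of 16 cell wall growth genes tested (of 24 listed), 2 were called (EXO and FLA9, both higher), against 0.218% of all genes tested. The list's median was 0.41, with 0.25 without PS1 root replicate 3 and 0.27 without PS1 root replicate 2 or PS0 shoot replicate 2.

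A pair of nuclear genes of chloroplast proteins rose in roots. LHCB2.3, a chlorophyll a/b binding protein of photosystem II, had 320.3, 341.2 and 384.2 normalized counts in PS1 roots, against 80, 46.9 and 37.3 in PS0 roots. In shoots LHCB2.3 had 579.7, 858.5 and 685.2 in PS1, against 941.4, 785.4 and 475.6 in PS0, with full overlap. All 3 PS1 root libraries were at like levels, and none was near a PS0 root library. The change was 2.72 ± 0.30 in roots (adjusted p = 1.3e-06) and -0.01 ± 0.30 in shoots, a difference of 2.73 ± 0.42 (adjusted p = 0.00058). Without PS1 root replicate 2, the library with the high photosynthesis sum, the LHCB2.3 difference was 2.75 ± 0.45. The other genes of this subfamily did not show that pattern. LHCB2.1 had 4, 72.5 and 2.8 in PS1 roots and 2, 1.8 and 9.3 in PS0 roots, and LHCB2.2 had 1.3, 12.8 and 0.1 in PS1 roots and 0, 0.9 and 0 in PS0 roots. The sources used here do not say to which gene reads of near-identical copies were assigned. The list of photosynthesis genes leaves out LHCB2.3. Of its 26 genes tested (of 28), 0 were called by limma, edgeR or DESeq2 and 2 had an unadjusted p under 0.05. Of all genes tested, 7.67% had such an unadjusted p. The list's median difference was 0.60, and -0.18 without PS1 root replicate 2 and 1.17 without PS1 root replicate 3. PSAD-1, a subunit of photosystem I, had a difference of 0.77 ± 0.30 (adjusted p = 0.46).

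CDSP32, a chloroplast thioredoxin-like protein known to be induced by drought, had 24.9, 12.8 and 17.8 normalized counts in PS1 roots, against 6.1, 9.7 and 9.3 in PS0 roots. In shoots CDSP32 had 527.3, 502.4 and 453.2 in PS1, against 708.7, 661.4 and 553.5 in PS0. CDSP32 rose in roots by 1.03 ± 0.23 (adjusted p = 0.011), its root libraries did not overlap, and the level in shoots was far above that in roots in all groups. The difference of 1.40 ± 0.32 (adjusted p = 0.046) was the smallest of the named genes, and its call remained only without PS0 root replicate 2, PS0 shoot replicate 3 or PS1 root replicate 2. Without each of the other 9 libraries the adjusted p was between 0.052 and 0.15, and with the seedling pool as a block it was 0.15.

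The other named genes belong to metabolism and calcium signalling. SRG3, also called GDPD1, a glycerophosphodiester phosphodiesterase of phospholipid breakdown, rose in roots and fell in shoots. It had 152.7, 98.1 and 164.5 normalized counts in PS1 roots and 75.9, 75.3 and 62.1 in PS0 roots, and 85.2, 59.6 and 63.9 in PS1 shoots and 179.8, 231.2 and 259.4 in PS0 shoots. The SRG3 change was 0.92 ± 0.25 in roots (adjusted p = 0.043) and -1.67 ± 0.25 in shoots (adjusted p = 0.0001), a difference of 2.59 ± 0.35 (adjusted p = 0.00011). UGT74F2, a glucosyltransferase that acts on salicylic acid, fell in roots. It had 15.5, 12.8 and 21.3 in PS1 roots, against 66.8, 69.9 and 52.8 in PS0 roots. In shoots UGT74F2 had 158.9, 150.9 and 173.5 in PS1, against 91.7, 130.1 and 146.2 in PS0. Neither pair of groups overlapped, and the root change of -1.89 ± 0.23 (adjusted p = 4.8e-06) was much larger in size than the shoot change of 0.41 ± 0.23 (adjusted p = 0.72). The UGT74F2 difference was -2.30 ± 0.32 (adjusted p = 0.00016), and -1.08 (adjusted p = 0.011) with the S0 and PH0 water libraries.

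AT1G75960, annotated as an AMP-dependent synthetase and ligase, had 18.8, 21.3 and 26 normalized counts in PS1 roots, against 2, 5.3 and 3.1 in PS0 roots. In shoots it had 47.9, 39.5 and 38.3 in PS1, against 88.1, 93.4 and 122.7 in PS0. The groups did not overlap in either tissue, and the levels of AT1G75960 in treated roots and shoots stood closer to each other than those in water did. Its difference was 3.67 ± 0.69 (adjusted p = 0.0054), with a root change of 2.42 ± 0.49 (adjusted p = 0.0048) and a shoot change of -1.25 ± 0.49 (adjusted p = 0.42). SRG3, UGT74F2 and AT1G75960 kept their calls without any 1 of the 12 libraries. IQD24, of a family of calmodulin-binding proteins, was barely counted in roots, with 5.4, 4.3 and 2.3 in PS1 (8, 1 and 16 reads) and 0, 0.9 and 0 in PS0 (0, 1 and 0 reads). In shoots IQD24 had 24, 36.9 and 37 in PS1 and 56.4, 58.2 and 39.2 in PS0. From the reads, PS1 roots held 7.12 times the level of PS0 roots, with a 95% interval of 1.16 to 292 that covers counting error only. The IQD24 difference was 2.60 ± 0.53 (adjusted p = 0.017), and 1.34 (adjusted p = 0.13) with 5 added before the logarithm. Its call was lost without PS0 root replicate 1 (adjusted p = 0.060), PS0 shoot replicate 2 (0.051), PS1 root replicate 1 (0.054) or PS1 shoot replicate 1 (0.061), and under the seedling pool block (0.15).

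pEARLI4, annotated as a phospholipase-like protein, had 41.7, 29.9 and 29.1 normalized counts in PS1 roots and 71.9, 51.3 and 52.8 in PS0 roots, and 134.9, 134.7 and 117 in PS1 shoots and 49.4, 67.4 and 116 in PS0 shoots. Its roots were lower and its shoots higher than water in all libraries, but neither change was called (-0.79 ± 0.24 and 0.81 ± 0.24). The pEARLI4 difference was -1.60 ± 0.35 (adjusted p = 0.025). The pEARLI4 call was lost without PS0 root replicate 1 (adjusted p = 0.10), PS0 shoot replicate 1 (0.10) or 2 (0.073), PS1 root replicate 3 (0.064) or PS1 shoot replicate 1 (0.064) or 2 (0.090), and under the seedling pool block (0.15). The 9 called genes left, which carry no symbol, included 6 with a higher and 3 with a lower difference, of 1.07 to 2.13 in size. A DnaJ domain protein, AT2G17880, had the largest of these, at 2.13 ± 0.37, and AT1G80380 (1.49 ± 0.26) and AT5G24490 (adjusted p = 0.0044) were the others that kept their calls without any 1 library. Under the seedling pool block AT2G17880 and AT1G80380 kept the call and AT5G24490 did not (adjusted p = 0.068). These 3 IDs were chosen after their values were seen.

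Some genes were called in both tissues. Among the same 9191 genes, limma called 176 (1.91%) in roots, 123 up (1.34%) and 53 down (0.577%), and 91 (0.99%) in shoots, 74 up (0.805%) and 17 down (0.185%). In both tissues 25 genes were called, 14.2% of the root list and 27.5% of the shoot list, of which 21 rose in both, 2 fell in both and 2 (RAV1 and SRG3) changed in opposite directions. The root count was 91 without PS0 root replicate 3. The shoot count was 59 without PS0 shoot replicate 1, 141 without PS0 shoot replicate 3, 56 without PS1 shoot replicate 2 and 48 without PS1 shoot replicate 3. Across all genes tested, which are not independent replicates, the root and shoot changes correlated with r = 0.30 and a rank correlation of 0.24.

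NCED3, the enzyme that commits carotenoids to ABA synthesis, rose in both tissues. It had 12.1, 12.8 and 43.2 normalized counts in PS1 roots and 0, 2.7 and 0 in PS0 roots, and 21.3, 36.9 and 45.7 in PS1 shoots and 0, 3.1 and 2.2 in PS0 shoots. With 3 reads in all PS0 roots, the ratio of PS1 to PS0 roots was 30.1 (95% interval 10.2 to 147, counting error only). The NCED3 root minus shoot difference was -0.16, with a 95% interval of -1.91 to 1.59, so a sizeable difference in either direction was within its error. ATAF1 and NAC102, a pair of NAC factors of the same clade, were measured more closely. ATAF1 had 740.8, 1463 and 733.2 in PS1 roots and 142.7, 130.1 and 183.2 in PS0 roots, and 799.9, 800.9 and 1242 in PS1 shoots and 151.6, 150 and 112.6 in PS0 shoots. Its difference was -0.14 (95% interval -0.96 to 0.68), and that of NAC102 was -0.04 (-0.84 to 0.76), with changes of 2.49 in roots and 2.53 in shoots. MAPKKK18, a kinase of the ABA pathway, changed by 2.34 in roots and 2.73 in shoots, a difference of -0.39 (-1.82 to 1.05). RD26, a NAC factor of dehydration, had 218, 477.7 and 202.5 in PS1 roots and 91.1, 100.9 and 186.3 in PS0 roots, and rose there (adjusted p = 0.045). In shoots RD26 had 319.6, 301.7 and 466.7 in PS1 and 67, 45.9 and 47.1 in PS0, a rise of 2.74 (adjusted p = 2e-06). The RD26 difference of -1.54 (-2.47 to -0.60) did not pass over all genes (adjusted p = 0.19), and it was 0.43 with the S0 and PH0 water libraries.

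The genes called at 1 h were looked up at other times and with other water. The values of these libraries did not enter the 1 h differences, but their spread entered the shared error of the 1 h test. These compared roots and shoots after 2 and 3 h of the same treatment (PS2 and PS3) with the S0 and PH0 water libraries, 24 libraries in all. The root minus shoot difference had the sign of the 1 h difference in 32 of 32 genes. Of the 20 higher genes, 20 were called higher, against 9.97% of all genes tested, and of the 12 lower genes, 10 were called lower, against 9.01%. In either direction 19% of all genes tested were called in those libraries. The times and the water sets differ from those of the 1 h comparison, and by either sign alone 45.3% of all genes were above and 54.7% below 0. FLA9 (4.13 ± 0.22), BXL2 (3.92 ± 0.21) and LHCB2.3 (5.53 ± 0.30) had larger values there than at 1 h. The water set enters this comparison, since at 1 h with S0 and PH0 water they were 2.38, 2.88 and 4.04. The root minus shoot difference of PS0 from those water libraries was 0.47, 1.12 and 1.31 (limma adjusted p = 0.34, 0.0069 and 0.029). HB6 (-0.43 ± 0.16, adjusted p = 0.053) and pEARLI4 (-0.63 ± 0.24, adjusted p = 0.068) were the 2 genes not called. ABI1 stood at -1.38 ± 0.21 and ABI2 at -3.36 ± 0.56.

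**Figure D3:**
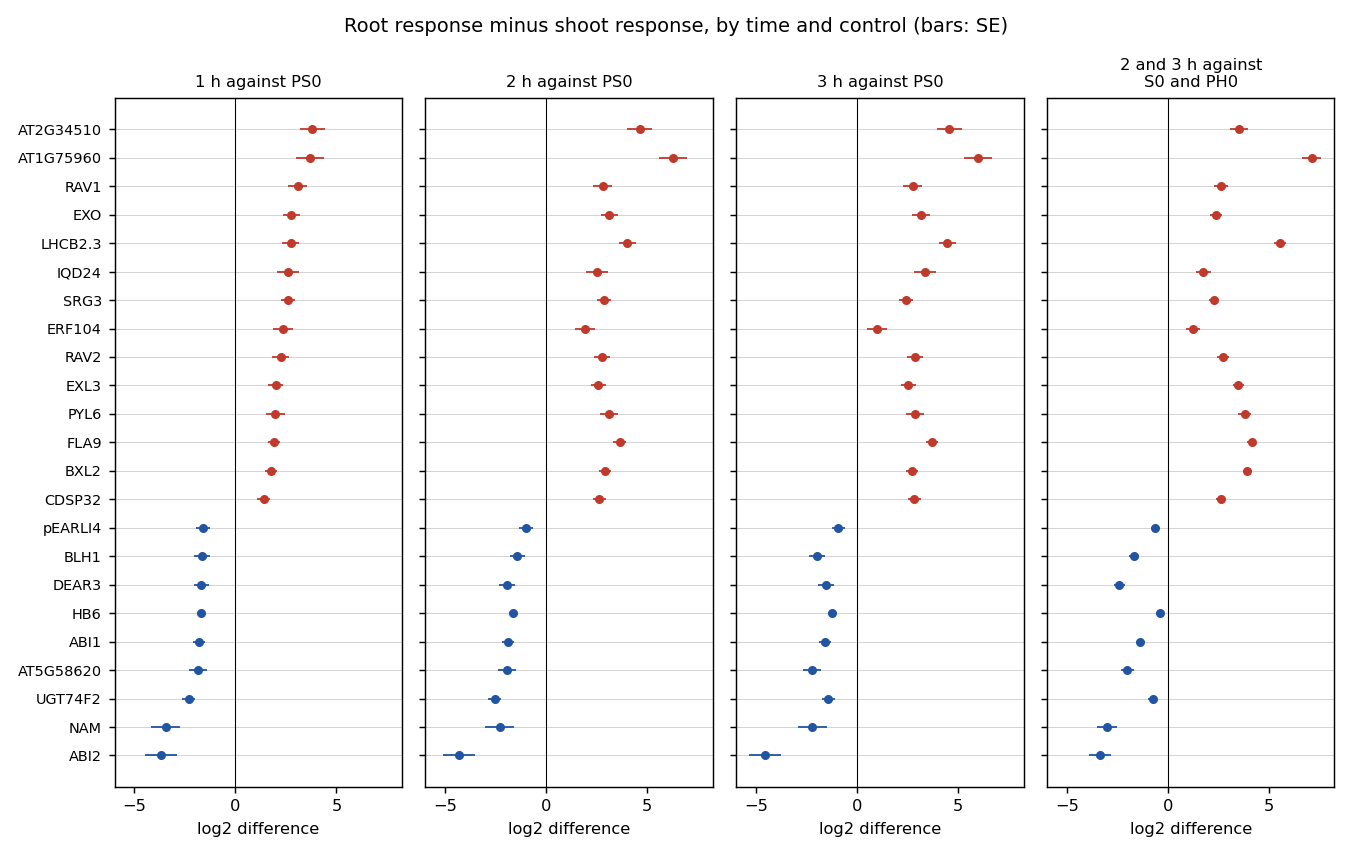
Root minus shoot difference (x axis, log2 scale, bars are SE) of the 23 named genes at 1, 2 and 3 h against PS0 water and, in the last panel, of 2 and 3 h together against S0 and PH0 water. The first 3 panels share their PS0 libraries, and the last takes no mean from a library of the first but shares its error estimate. Red genes were called higher and blue genes lower at 1 h, and in the last panel AT1G75960 stands furthest to the right and ABI2 furthest to the left.

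The 2 h and 3 h differences against PS0 share their water libraries with the 1 h difference, so they are given beside it without a test of likeness. AT1G75960 had differences of 3.67, 6.26 and 5.98 at 1, 2 and 3 h, and LHCB2.3 2.73, 4.00 and 4.46. FLA9 had 1.91, 3.63 and 3.70, and BXL2 1.76, 2.90 and 2.71. The ABI1 values were -1.82, -1.88 and -1.59, and those of RAV1 were 3.08, 2.79 and 2.74. ERF104 had 2.35, 1.91 and 0.96, and UGT74F2 -2.30, -2.55 and -1.43. The values of AT1G75960, LHCB2.3, FLA9 and BXL2 lay further from 0 at 2 and 3 h than at 1 h. So did those of AT2G34510, EXO, RAV2, EXL3, PYL6, CDSP32, AT5G58620 and ABI2. Those of the other named genes did not do so at both times, and that of ERF104 lay closer to 0 at 3 h. Not all wall and plastid genes lay further from 0 at both later times, since EXL2 had 0.79, 0.63 and 0.55 and PSAD-1 had 0.77, 0.91 and 0.58. These orders were not tested.

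Other lists had few or no called members. Of all 9191 genes tested, edgeR called 42 and DESeq2 94. At an unadjusted p under 0.05 limma found 705 (7.67%), 327 higher and 378 lower. The counts of list members below stand against these. Of 18 aquaporin genes tested, 0 were called by limma or edgeR and 3 by DESeq2, 4 had a lower difference at an unadjusted p under 0.05, and the median was -0.42 (-0.56 to -0.31). RD28, a plasma membrane water channel also known as PIP2;3, had 374.8, 273 and 303.1 normalized counts in PS1 roots and 273.3, 295.7 and 444 in PS0 roots, and 77.2, 126.3 and 182.2 in PS1 shoots and 45.8, 55.1 and 33.6 in PS0 shoots. RD28 rose in shoots (1.44, adjusted p = 0.004) and overlapped in roots, and its difference of -1.51 ± 0.40 had an adjusted p of 0.092. Its near-identical neighbour PIP2B had a difference of -1.12 ± 0.28 (adjusted p = 0.078), and reads of this pair may be shared. TIP2;2, a vacuolar water channel, had -1.31 ± 0.39 (adjusted p = 0.18). Of 6 genes of the cold and CBF list, 0 were called by limma and 1 each by edgeR and DESeq2, 2 had an unadjusted p under 0.05, and the median was 2.18, with 1.302 without PS0 root replicate 1 and 3.51 without PS0 shoot replicate 1. CBF4, a DREB factor linked to drought, rose in roots, with 14.8, 12.8 and 14.6 in PS1 roots and 1, 0.9 and 0 in PS0 roots (2 reads), a ratio of 17.8 with a 95% interval of 4.82 to 149 for counting error. Shoots of CBF4 had 5.3, 1.9 and 6.1 in PS1 and 0, 9.2 and 11.8 in PS0, and its difference of 3.27 ± 0.94 was not called (adjusted p = 0.15).

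Of 19 rapid stress and wound genes tested, 1 (ERF104) was called higher, against 0.218% of all genes tested. A higher difference at an unadjusted p under 0.05 was found for 4 of them, against 327 of all 9191 genes tested. The list's median was 0.71, and 0.46 without PS1 root replicate 2 and 0.29 without PS0 shoot replicate 3. RRTF1, an ethylene response factor of redox stress, had 2.98 ± 1.19 (adjusted p = 0.48). Of 6 heat shock genes, 0 were called by limma or edgeR, 1 by DESeq2 and 2 at an unadjusted p under 0.05, with a median of -1.04 that was -0.66 without PS0 root replicate 2. HSF4, a heat stress factor of class B, had -1.03 ± 0.31 (adjusted p = 0.20). Of 7 root markers tested (of 17), 0 were called by limma or edgeR, 1 by DESeq2 and 1 at an unadjusted p under 0.05, with a median of -1.23 (-0.65 without PS0 shoot replicate 3), beside the lower marker sums in PS1 roots given above. Of 12 sugar starvation genes, 0 were called by limma or edgeR, 2 by DESeq2 and 3 at an unadjusted p under 0.05, with a median of 0.40 (0.31 to 0.68, the highest without PS1 root replicate 2). EXL2, a relative of EXO, had 0.79 ± 0.28 (adjusted p = 0.37). The 6 tested genes of alternative respiration and mitochondrial stress, the target process of SHAM, had a median of 0.12, and the 12 of jasmonate synthesis, which holds lipoxygenases, one of -0.05. With 1 library left out they ranged from 0.014 to 0.30 and from -0.41 to 0.029. In these 2 lists limma, edgeR and DESeq2 called 0 genes, and 0 and 1 had an unadjusted p under 0.05. The 9 reference genes had a median of -0.001 (-0.19 to 0.21), with 0 called by limma or edgeR, 1 by DESeq2 and 1 at an unadjusted p under 0.05. The medians of the 9 lists left, of 2 to 12 tested genes each, lay between -0.62 (ethylene) and 0.27 (circadian clock), and 6 of these 9 medians changed sign with 1 library left out. In these 9 lists limma and edgeR called 0 genes, DESeq2 called 1 each in jasmonate response and ribosome biogenesis, and 7 genes had an unadjusted p under 0.05.

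**Figure D4:**
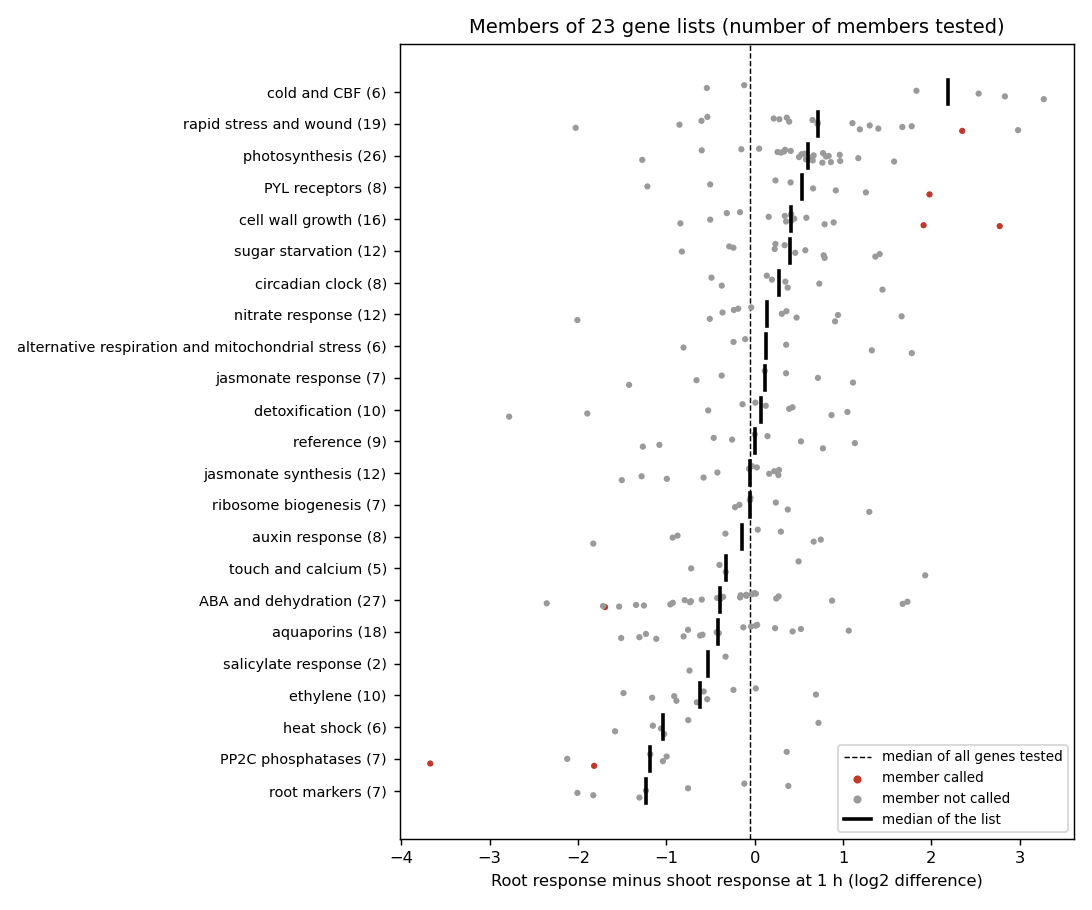
Root minus shoot difference at 1 h (x axis, log2 scale) of the tested members of 23 gene lists, ordered by median. Red points are called members, grey points members not called, black bars list medians, and the dashed line the median of all genes tested (-0.05). Of the 7 PP2C phosphatases 6 lie left of 0, with ABI1 and ABI2 in red, and PYL6 is the red point among the receptors.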

How the data were processed

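The authors' deposited table holds a normalized signal, gene counts divided by 1 size factor per library and rounded to 0.1, as the steps of its values show, for 16283 genes in 36 libraries. Per the submitters' processing notes, the tools were STAR 2.4.2a, HTSeq, DESeq2, cutadapt and bcl2fastq. No source used here states the genome build, annotation, strand setting or use of molecular identifiers, and coordinates and sequences are therefore left out. RefSeq supplied symbols for gene IDs, of which 16183 matched.

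limma 3.58.1 (R 4.3.3, trend option) was fitted to log2(normalized count + 1) of all 36 libraries as 12 group means, with 24 residual degrees of freedom and no covariate. Genes at 5 or above in at least 3 libraries of each tissue were kept (9191), and Benjamini-Hochberg adjustment ran over all of them. For the low genes ABI2, NAM and IQD24 a larger added constant gave a smaller difference in size. With 1 added the difference was not always smaller than that from reads. That of ABI2 was -3.67 with limma, -2.80 with edgeR and -2.77 with DESeq2, and that of NAM -3.44, -2.77 and -2.81. For IQD24 it was 2.60, 3.355 and 3.29. IQD24 was not called by edgeR (adjusted p = 0.14) or by DESeq2 (adjusted p = 0.22). NAM, BLH1 and pEARLI4 were not called by edgeR (adjusted p = 0.069, 0.069 and 0.058). Replicates are taken as separate pools of seedlings, and per the protocol roots and shoots were parted after treatment. The labels give a set and number but name no pool. The pairing by pool was fitted as an alternative.

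Dividing each library by the step between its values gave whole reads, with at least 99.889% of values within 0.05 of a whole number. These reads gave the depth and entered edgeR 4.0.16 and DESeq2 1.42.0 as alternatives. Intervals on read ratios cover counting error only. The fits were tested on simulated data with known changes.

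Named genes are those called whose highest group mean reached 20, up to 15 a direction, without organelle genes and with IDs lacking a symbol admitted only among the 5 most extreme. List examples went by limma's statistic. Members and lists were chosen with earlier results of these data known. Alternatives covered the added constant, filter, scaling, tool, water set, replicate block, depth and each replicate left out.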

Additional observations from a re-analysis of the deposited data

Results flagged for a closer look

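A test of the difference between the root and shoot responses picked out the following 23 genes, which are the named genes of the comparison. Values are root minus shoot differences at 1 h on the log2 scale. Higher differences were found for AT2G34510 (3.80), AT1G75960 (3.67), RAV1 (3.08), EXO (2.77), LHCB2.3 (2.73), IQD24 (2.60), SRG3 (2.59), ERF104 (2.35), RAV2 (2.23), EXL3 (1.99), PYL6 (1.98), FLA9 (1.91), BXL2 (1.76) and CDSP32 (1.40). Lower differences were found for pEARLI4 (-1.60), BLH1 (-1.66), DEAR3 (-1.68), HB6 (-1.70), ABI1 (-1.82), AT5G58620 (-1.86), UGT74F2 (-2.30), NAM (-3.44) and ABI2 (-3.67). Groups of 3 libraries are too small for a test of single outlying libraries.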

How the results depend on the processing

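The cause of the changes in count given here was not tested. The count of genes whose response differed (32) was 3 in the 12 libraries alone (426 at an unadjusted p under 0.05), 21 with TMM, 42 with edgeR, 94 with DESeq2, 1006 with S0 and PH0 water, 491 with all 3 water sets, 163 with depth as a covariate and 71 without the libraries under 600 kiloreads, a setting added after seeing the data. Of the 23 named genes, 3 (AT1G75960, EXO and SRG3) passed in the 12 libraries alone, and the other 20 had adjusted p between 0.074 and 0.71. Leaving out 1 replicate gave 18 to 69. The median of all genes shifted by 0.13 with edgeR, 0.20 with DESeq2 and -0.11 with S0 and PH0 water. The root count (176) was 427 with no filter, 16 in the 12 libraries alone, 351 with DESeq2, 1505 and 1140 with those water sets, 847 with depth, and 91 to 261 without 1 replicate. The shoot count (91) was 22, 145, 1703 and 860 in the 12 libraries, with DESeq2 and with those water sets, and 48 to 141 without 1 replicate.

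Root and shoot libraries of 1 set and number are taken to come from 1 seedling pool, since the protocol parts the tissues after treatment. Their deviations from group means correlated between -0.41 and -0.06. Of the 12 libraries, 0 correlated best with the library of their own number in the other tissue. A replicate block by this pool gave 15 calls (12 higher, 3 lower), all among the 32, with 13 of the 23 named genes kept and the other 10 given above. PS1 and PS0 libraries share a number but no pool (correlations of -0.49 to -0.01), and a block by number gave 25. The pool block could not be fitted to the root or shoot response alone, since each pool has 1 library of a tissue.

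Differences that were not called and lay near 0 changed sign, and so did that of RD26, which was not near 0. NCED3 was 0.080 with 0.5 added, 0.35 with edgeR, 0.42 with DESeq2 and 0.41 without the libraries under 600 kiloreads, and -0.73 to 0.47 without 1 replicate. NAC102 was 0.033, 0.10 and 0.25 with edgeR, with DESeq2 and without those libraries, 0.30 with S0 and PH0 and 0.19 with all water, and -0.25 to 0.25 without 1 replicate. MAPKKK18 was 0.29 with 5 added and -0.95 to 0.064 without 1 replicate, and ATAF1 -0.47 to 0.075 likewise. RD26, at -1.54 against PS0, was 0.43 with S0 and PH0 water. For RD26 the root minus shoot difference of PS0 from those water libraries was 1.96 (limma adjusted p = 0.0028). Shallow libraries limit what low genes such as ABI2, NAM and IQD24 can show.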
